A study of Rattus norvegicus with 6 samples.

Results

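The Hedgehog pathway genes described here are 9 genes, namely the ligands Shh and Ihh, the receptor Ptch1, the signal transducer Smo, the inhibitors Hhip and Sufu, and the transcription factors Gli1, Gli2 and Gli3. They were chosen by name in the table of linear transcripts, and they are 9 of 21210 named genes with an annotated transcript and hold 38 of 70376 transcripts. The study compared the lung of 3 control rats with that of 3 rats with bleomycin-induced pulmonary fibrosis (PF model), to find RNAs that differ in fibrotic lung. The rats were Sprague-Dawley rats of 7 weeks that received 1 intratracheal dose, either bleomycin at 7 mg/kg or the same volume of saline, and the lung was taken 28 days later. Each rat gave 1 library of total RNA depleted of rRNA, and no allele or transgene is involved. Expression was measured as FPKM, the fragments per kilobase of transcript scaled to sequencing depth, and a gene's level is the sum over all transcripts that carry its name.

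Hedgehog ligands are secreted proteins. Without ligand, Ptch1 keeps Smo inactive, and Gli2 and Gli3 are held by Sufu and processed into repressors. When a ligand binds Ptch1, Smo accumulates in the primary cilium and full-length Gli proteins activate target genes, among them Gli1, Ptch1 and Hhip, so that these 3 transcripts are commonly read as an output of the pathway. In the lung, Shh is known as a signal from epithelium to the surrounding mesenchyme during branching, and mesenchymal cells of the adult lung remain responsive to it.

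The scale of the FPKM corresponds to totals between 42610900 and 48854100 per control library and between 43991400 and 48480100 per model library, and the reads of the 9 genes, estimated from coverage, ranged from 345 to 658 for Smo and from 5212 to 6270 for Ptch1 per library. Only Ihh, with 11.3 to 29.6 reads, and Gli1, with 71.1 to 143, rested on few reads. The lung label was checked against marker genes of its cell types. The 7 type 2 cell markers summed to 4515 to 6265 FPKM in control and 5315 to 6893 in model samples, and the 6 type 1 cell markers to 691 to 883 and 790 to 908. The 7 fibroblast markers, a cell type known to respond to Hedgehog ligands, summed to 324 to 343 FPKM in the control and 347 to 448 in the model samples. These sums did not overlap, beside 10.7% of all single genes tested. Of those 7 genes, 4 had a higher mean in the model. Col3a1, a fibrillar collagen chain and the largest part of the sums, had 169 ± 13.1 against 208 ± 22.3 FPKM (SD, n = 3; limma adjusted p = 0.934). Dcn, Lum and Pdgfra had lower means in the model, at 14.0 against 12.6, 2.94 against 2.66 and 26.1 against 24.9 FPKM. The 6 cardiac muscle markers summed to 6.88 to 11.5 FPKM in the control samples, to 6.58 and 7.12 in model samples 1 and 2, and to 27.9 in model sample 3, which stood apart. Its smooth muscle markers also had the highest sum, 171 FPKM, beside at most 133 in the other samples. Model sample 3 also had the highest Smo, Gli1, Gli3 and Sufu of the 6, though Gli1 was 0.799 FPKM there and 0.797 in model sample 2. Without model sample 3 their differences from control on the log2(FPKM + 1) scale were -0.10, 0.026, 0.019 and 0.057. Of the 6 cardiac markers, Myh6 had FPKM above 0 in fewer than 3 samples and was not tested. Among the others 1, Nppa, passed the study's threshold, at 0.036 against 0.157 FPKM with 2 control samples at 0 (limma adjusted p = 0.934). No matched marker was at 0 in all 6 samples, and the part of these cell type differences in the values below was not tested. In bulk tissue, fewer cells of a type and less RNA per cell cannot be told apart.

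None of the 9 genes differed between PF model and control samples beyond the spread between rats. The study's thresholds are a p of up to 0.05, taken here before adjustment, with group means that differ by at least 1 on the log2 scale. By them 0 of the 9 genes were called, where 293 of 19203 tested genes (1.53%) were. At p of at most 0.05 alone the count was 0 of 9, beside 4.9% of all genes, and the smallest p, that of Shh, was 0.143. Of the 15 fibrosis marker genes in the same limma fit, 0 were called and 1, Col3a1, had an unadjusted p of at most 0.05. Their means of log2(FPKM + 1) were higher in the model for 11 and lower for Timp1, Lox, Cthrc1 and Grem1. The 9 genes are thus compared in libraries where most fibrosis markers also stayed within the spread. An adjusted p below 0.05 was reached by 2 genes of the whole table, 0.0104% of those tested, and by none of the 9, whose smallest adjusted p was 0.934 (limma on log2(FPKM + 1), Benjamini-Hochberg). The ranges of the control and model samples overlapped for all 9 in these sums, beside 10.7% of all tested genes with ranges that did not overlap. With only 9 genes, this count is near that share. Of the 9 means of log2(FPKM + 1), 6 were higher and 3 lower in the model, beside 47.7% higher among all genes, with a median difference of 0.08 on the log2(FPKM + 1) scale beside -0.01 over all tested genes. This scale understates the change of low genes. The p-values set each group difference against the spread between rats within the groups, moderated over all tested genes, and cover these 6 animals only.

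**Figure D1:**
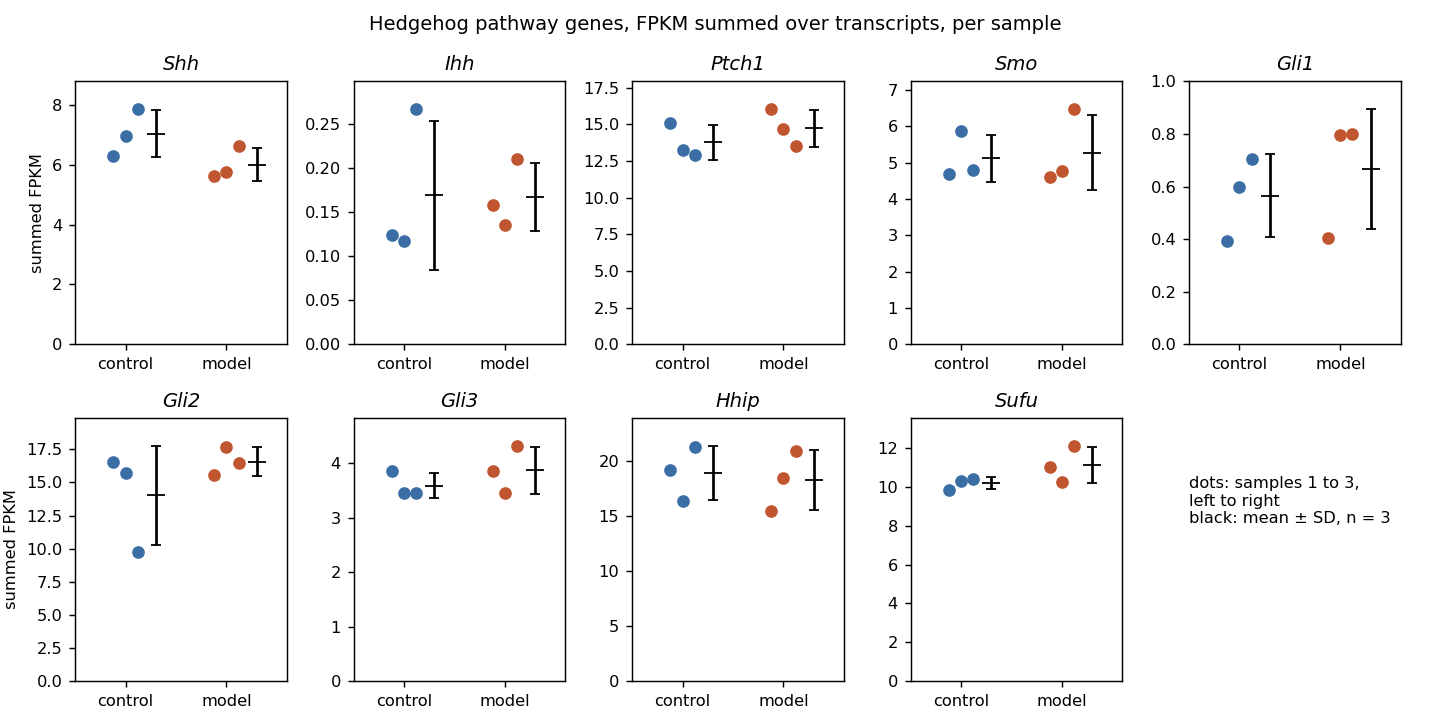
Summed FPKM of each of the 9 Hedgehog genes (vertical axes, each from 0), with 1 dot per sample and the mean ± SD in black for control and model samples (n = 3 each). The dots of both groups overlap in every panel, and the widest relative spread is that of Ihh and Gli1.

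Both ligands were present at low or moderate levels. Shh, the main ligand of lung epithelium, had 6.29, 6.97 and 7.86 FPKM in the control samples and 5.62, 5.75 and 6.63 in the model samples. Model sample 3 lay within the control range and the other model samples below it. The means were 7.04 ± 0.79 and 6.0 ± 0.55 FPKM (SD, n = 3), and the model minus control difference was -0.20 (SE 0.12, 95% interval -0.48 to 0.09, limma adjusted p = 0.934). The interval is that of a ratio of FPKM + 1 between 0.715 and 1.06.

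Shh summed 3 transcripts, which did not move alike. The annotated transcript ENSRNOT00000008497 gave only 11.9% of the sum, from 0.485 to 1.49 FPKM over the 6 samples. The largest part came from MSTRG.24875.2, an assembled form of 2 exons that holds 81.7% of the bases of its span, against 18.7% in the annotated form, and it ranged from 2.76 to 3.52 FPKM. The remaining transcript, MSTRG.24874.1, is a single exon that lies 20 bases beyond the end of the annotated gene on chromosome 4 and was assigned to Shh by its position.

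That downstream transcript had 1.98, 3.11 and 4.42 FPKM in the control samples and 1.87, 1.72 and 2.38 in the model samples, and it made up between 29.9% and 56.2% of the Shh sum. Its difference was -0.44 (SE 0.25, limma adjusted p = 0.945). Without it, Shh had 3.87 ± 0.433 FPKM in control and 4.01 ± 0.249 in model samples, a difference of 0.04 (95% interval -0.23 to 0.32), and the annotated transcript alone gave 0.20 (95% interval -0.33 to 0.73). The direction of the Shh difference thus turned with the transcripts that were summed.

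Ihh, the ligand best known from cartilage and gut, was the lowest of the 9 genes. It had 0.124, 0.117 and 0.267 FPKM in the control samples and 0.158, 0.135 and 0.210 in the model samples, all from 1 annotated transcript. Sample 3 was the highest of each group, and the groups overlapped. The means were 0.169 ± 0.0846 and 0.168 ± 0.0385 FPKM, and the 95% interval of the difference ran from -0.16 to 0.16. Dhh, the ligand known from the testis and peripheral nerve, had 1.28 ± 0.108 FPKM in control and 1.28 ± 0.0645 in model samples. It lay above Ihh and below the Shh sum over all transcripts. The annotated Shh transcript alone, with a mean of 0.777 FPKM over the 6 samples, was below Dhh.

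Ptch1, the receptor that restrains Smo and is itself a target of the pathway, was among the highest of the 9 genes. It had 15.1, 13.2 and 12.9 FPKM in the control samples and 16.0, 14.7 and 13.5 in the model samples, with overlapping ranges. The means were 13.8 ± 1.19 and 14.7 ± 1.26, the difference was 0.09 (SE 0.10, 95% interval -0.15 to 0.33), and the highest sample was 1.24 times the lowest. Among the 9 genes this range was close to the narrowest, that of Sufu at 1.23 times.

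The promoter of Ptch1 is shown because Ptch1 is the receptor gene that Gli proteins are known to control. The 250 bases before its start in RefSeq (GRCr8, chr17:1555321-1555570, + strand) contain TGGGTGGTC, the 9-base consensus that Gli factors bind, from base -172 to -164, in capitals. The Gli3 window of 37 bases (GRCr8, chr17:54405253-54405289, - strand) holds only the shorter TGGGTGG, from base -76 to -70, and is shown for contrast. TGGGTGG is part of the longer consensus, and both were searched on both strands.
Ptch1: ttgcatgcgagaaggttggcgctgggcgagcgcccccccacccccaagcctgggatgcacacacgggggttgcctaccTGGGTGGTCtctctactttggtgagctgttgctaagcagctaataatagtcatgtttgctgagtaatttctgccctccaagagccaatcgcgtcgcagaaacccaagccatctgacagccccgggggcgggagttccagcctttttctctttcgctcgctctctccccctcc
Gli3: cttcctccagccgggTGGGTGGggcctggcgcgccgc
The consensus TGGGTGGTC occurred in 129 of 33469 promoters of 250 bases before to 50 after the start (0.385%), and in 1 of the 6 Hedgehog genes present in the promoter table. TGGGTGG occurred in 8.87% of all promoters and in 2 of those 6. Of 30 other pathway genes in the table, 1 held the longer consensus, Ulk3, a kinase that acts on Gli proteins. A match is a description of letters and not a measured binding site.

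The steadiness of the Ptch1 sum was not that of its transcripts. Its 10 transcripts, 2 annotated and 8 assembled with at least 1 exon junction in common with the annotation, had means between 0.173 and 3.63 FPKM. The annotated ENSRNOT00000026287 had 4.10, 2.72 and 2.12 FPKM in the control samples and 6.55, 5.0 and 1.27 in the model samples, so that its highest and its lowest value were both in the model. MSTRG.14692.5 had 3.83 FPKM in control sample 1 and 0.314 to 0.427 in the other 5 samples.

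A single transcript of the 38 reached an unadjusted p of at most 0.05, and it belongs to Ptch1. MSTRG.14692.10, an assembled form of 9 exons and 6377 bases, starts and ends inside the gene. It holds 49.5% of the bases of its span, against 8.02% and 11.3% in the annotated forms. This transcript had 1.09, 0.943 and 1.22 FPKM in the control samples and 2.39, 1.97 and 1.74 in the model samples. All model values lay above all control values. The difference was 0.54 (SE 0.16, 95% interval 0.15 to 0.92). In limma its p of 0.0148 became an adjusted p of 0.945 over 64867 transcripts, of which 0.0277% had an adjusted p below 0.05. It missed the fold threshold, which among the fits without 1 sample it met only without model sample 3, and without model sample 1 its unadjusted p was above 0.05.

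At transcript level 0 of 38 were called, where 2.98% of all tested transcripts were, and 1 of 38 passed p alone, beside 4.53% of all. Ranges of the groups did not overlap for 3 of the 38, beside 10.4% of all transcripts. The other 2 were intronic transcripts of Gli2 and Sufu, described with those genes. Means of log2(FPKM + 1) were higher in the model for 25 of the 38 and for 44.6% of all transcripts, with median differences of 0.09 and -0.02. Every transcript of Gli2 and of Sufu was among the 25. Transcripts of 1 gene are not independent of each other, so this count is a description only.

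**Figure D2:**
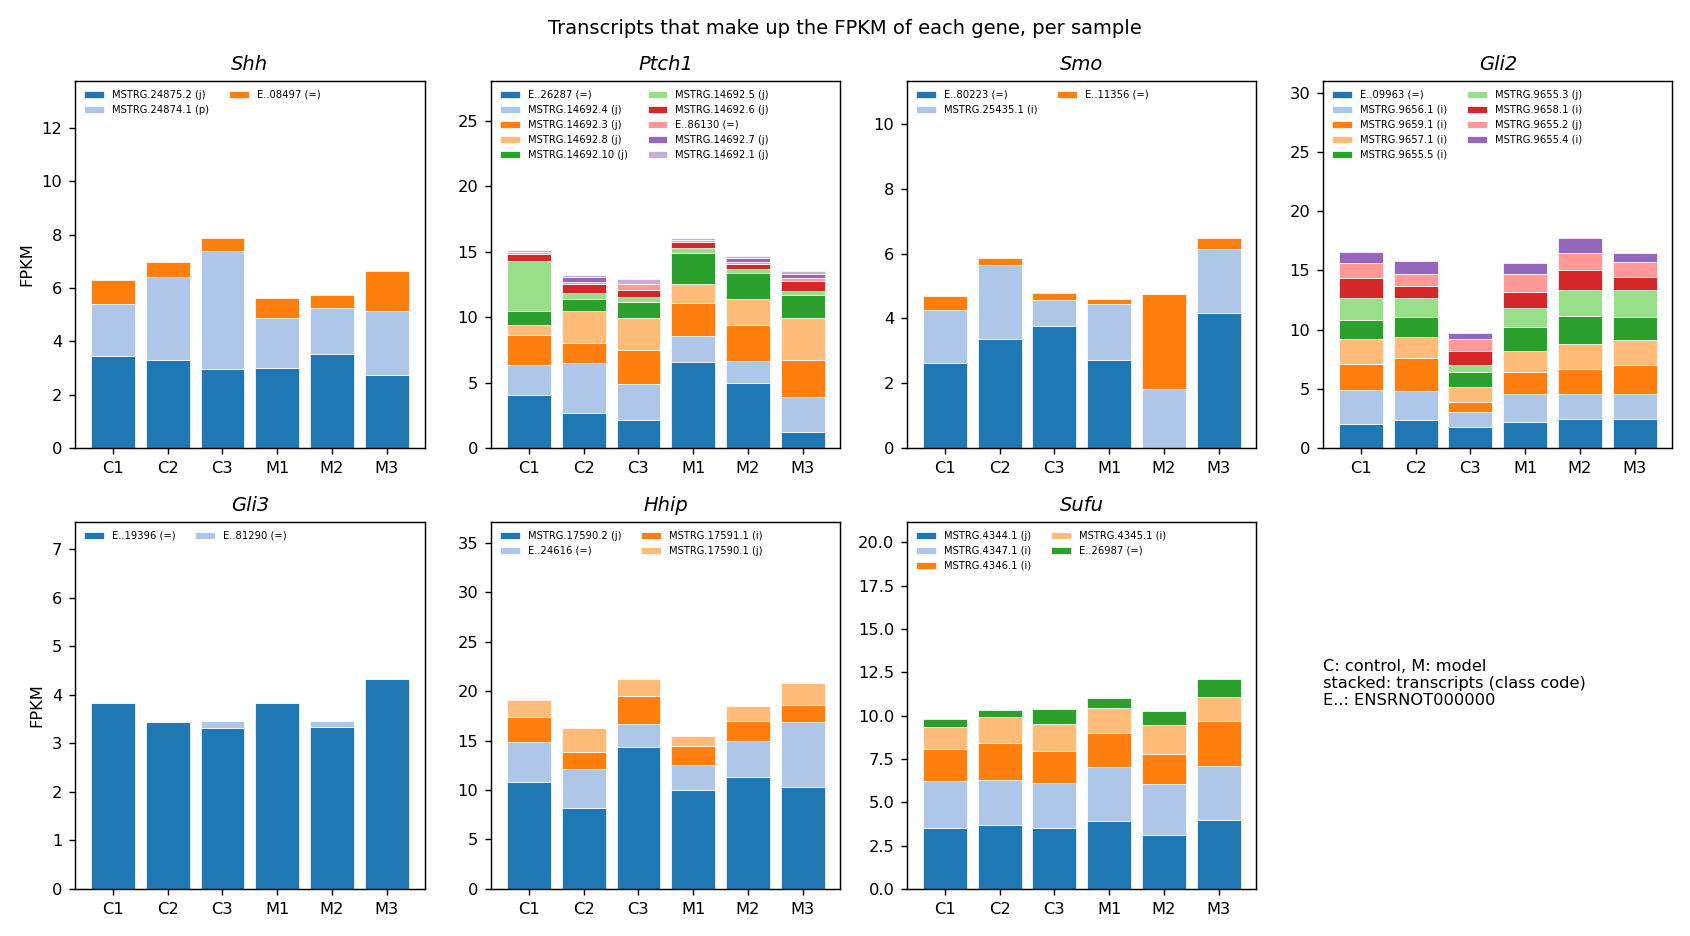
FPKM of each transcript (coloured segments, named in each panel with its class code) stacked per sample for the 7 Hedgehog genes with 2 or more transcripts, where C1 to C3 are control and M1 to M3 model samples. In model sample 2 the Smo bar lacks the segment of ENSRNOT00000080223 and holds a larger one of ENSRNOT00000011356, and in control sample 1 the Ptch1 bar holds the large segment of MSTRG.14692.5.

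Smo, the membrane protein that Ptch1 restrains, had 4.68, 5.86 and 4.79 FPKM in the control samples and 4.60, 4.76 and 6.47 in the model samples. The lowest and the highest of the 6 were both model samples. The means of 5.11 ± 0.651 and 5.28 ± 1.04 FPKM gave a difference of 0.03 (SE 0.16, 95% interval -0.34 to 0.40).

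The Smo sum joins 2 annotated transcripts on chromosome 4 that start at different positions, and model sample 2 differed from the other samples in how they were used. ENSRNOT00000080223 had 2.61, 3.36 and 3.78 FPKM in the control samples and 2.72, 0 and 4.15 in the model samples. ENSRNOT00000011356 had 0.428, 0.221 and 0.227 in the control samples and 0.163, 2.93 and 0.336 in the model samples. Together they had 3.04, 3.58 and 4.0 FPKM in control and 2.89, 2.93 and 4.49 in model samples, so the sample listed at 0 for the first form had the second form at the level of the pair. The share of the first form in the Smo sum was 64.0 ± 12.9% in control and 41.1 ± 35.7% in model samples (exact permutation p = 0.6, where the smallest p that 3 against 3 allow is 0.1). The part that assignment of shared reads between both forms had in this exchange was not tested.

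Hhip, a membrane-bound protein that sequesters Hedgehog ligands, had the highest mean of the 9 genes. It had 19.1, 16.3 and 21.2 FPKM in the control samples and 15.5, 18.5 and 20.9 in the model samples. The groups overlapped along nearly their whole range. The means were 18.9 ± 2.46 and 18.3 ± 2.70 FPKM, with a difference of -0.05 (SE 0.14, 95% interval -0.39 to 0.29).

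Most of the Hhip level came from MSTRG.17590.2, an assembled form of 12 exons that starts at the same base as the annotated one and ends farther downstream, with 8.22 to 14.4 FPKM. The annotated form, ENSRNOT00000024616, had 4.07, 3.92 and 2.30 FPKM in the control samples and 2.60, 3.67 and 6.52 in the model samples, with its highest and lowest values in model sample 3 and control sample 3.

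Sufu, the cytoplasmic protein that holds Gli factors, was the steadiest gene when all transcripts were summed. It had 9.83, 10.3 and 10.4 FPKM in the control samples and 11, 10.3 and 12.1 in the model samples. Model sample 2 lay among the controls and the other model samples above them. The means were 10.2 ± 0.311 and 11.1 ± 0.929 FPKM, with a difference of 0.11 (SE 0.09, 95% interval -0.10 to 0.33, limma adjusted p = 0.934).

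Between 57.8% and 61.5% of the Sufu sum came from 3 single-exon transcripts inside its introns, all on the opposite strand, which carry the name of the gene by position. The annotated transcript ENSRNOT00000026987 gave 6.58%, from 0.403 to 1.02 FPKM, and the assembled MSTRG.4344.1, with 12 exons, gave 3.13 to 3.97 FPKM. The intronic MSTRG.4347.1 had 2.73, 2.60 and 2.63 FPKM in the control samples and 3.09, 2.91 and 3.16 in the model samples, without overlap, and a difference of 0.15 (SE 0.11, limma adjusted p = 0.945).

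The Gli factors differed widely in level. Gli1, the factor whose own transcription reports pathway activity, had 0.393, 0.599 and 0.704 FPKM in the control samples and 0.403, 0.797 and 0.799 in the model samples. The lowest samples of the groups were alike and 2 model samples lay above all controls. The means were 0.565 ± 0.158 and 0.666 ± 0.228 FPKM, and the difference was 0.09 (SE 0.13, 95% interval -0.23 to 0.41). Its highest sample was 2.03 times its lowest, a range exceeded among the 9 only by the 2.28 times of Ihh.

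Gli2, the main activator of the response, had 16.6, 15.8 and 9.72 FPKM in the control samples and 15.6, 17.7 and 16.5 in the model samples. Control sample 3 was low and the other 5 samples lay together. The means were 14.0 ± 3.74 and 16.6 ± 1.06 FPKM, and the difference of 0.26 (SE 0.19, 95% interval -0.21 to 0.73, limma adjusted p = 0.934) was the largest in size among the 9. Without control sample 3 it was 0.03.

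Of the Gli2 sum, 64.0% to 68.7% came from 6 transcripts inside introns and 14.6% from the annotated transcript. The annotated form had 2.07, 2.41 and 1.79 FPKM in the control samples and 2.23, 2.48 and 2.44 in the model samples. When only annotated transcripts and assembled ones that share a junction with them were summed, a choice made after the transcripts were seen, Gli2 had 5.19, 4.98 and 3.42 FPKM in control and 5.38, 6.10 and 5.93 in model samples. These ranges did not overlap, as for 10.2% of all genes summed that way, and the difference of 0.31 had a 95% interval from -0.05 to 0.68 (limma adjusted p = 0.951). The intronic MSTRG.9655.5 had 1.6, 1.74 and 1.29 FPKM in control and 2.05, 2.34 and 1.94 in model samples, without overlap (limma adjusted p = 0.945).

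Gli3, which acts mainly as a repressor, had 3.85, 3.46 and 3.46 FPKM in the control samples and 3.85, 3.45 and 4.32 in the model samples. Model sample 3 was the highest and the other 5 samples lay within the control range or next to it. The means were 3.59 ± 0.227 and 3.88 ± 0.434 FPKM, with a difference of 0.08 (SE 0.12, 95% interval -0.21 to 0.38). At least 95.7% of the sum came from the annotated ENSRNOT00000019396 in every sample.

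Ordered by the sum over all transcripts, the mean levels over the 6 samples were 18.6 FPKM for Hhip, 15.3 for Gli2, 14.2 for Ptch1, 10.7 for Sufu, 6.52 for Shh, 5.19 for Smo, 3.73 for Gli3, 0.616 for Gli1 and 0.168 for Ihh. The sample ranges overlapped for Hhip and Gli2, for Gli2 and Ptch1, and for Shh and Smo, and for no other neighbours in this order. The order depended on which transcripts were summed. Without intronic and downstream transcripts Gli2 had a mean of 5.17 FPKM and Sufu 4.32, both far below Ptch1 at 14.2. This sum keeps assembled forms that share a junction, also long ones. Among them is MSTRG.9655.3 of Gli2, with 15940 bases in 2 exons, against 6366 bases in the annotated form. With annotated transcripts alone Hhip, Ptch1, Gli3 and Smo lay between 3.49 and 3.85 FPKM, and Sufu was at 0.701 and Shh at 0.777.

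**Figure D3:**
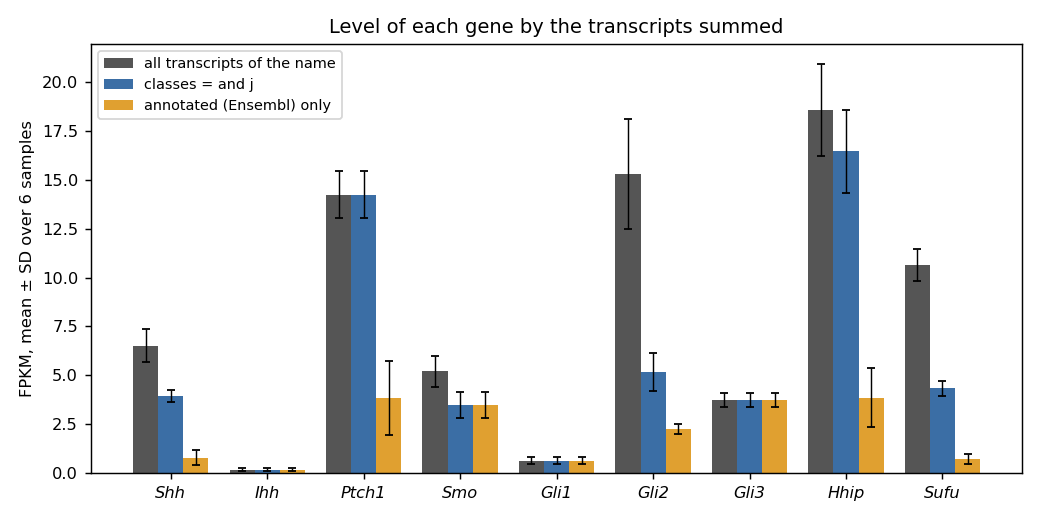
Mean FPKM ± SD over the 6 samples (vertical axis, from 0) of each Hedgehog gene for 3 ways of summing its transcripts, given by colour. The bars of Ihh, Gli1 and Gli3 are equal for the 3 sums, while those of Gli2 and Sufu drop when intronic transcripts are left out.

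Many transcripts of these genes lay inside introns. Of the 38, 12 were annotated (31.6%), 14 were assembled forms sharing a junction (36.8%) and 11 lay inside an intron (28.9%), whereas 16.5% of the transcripts of all named genes were intronic. The 11 intronic transcripts lay in Smo, Gli2, Hhip and Sufu, 3 on the strand of the gene, 7 on the opposite strand and 1 without a strand. The annotated share of the FPKM was 6.58% for Sufu, 11.9% for Shh, 14.6% for Gli2, 20.7% for Hhip, 26.9% for Ptch1, 67.2% for Smo and 100% for Gli3, beside a median of 39.4% over 10988 genes with 2 or more transcripts. These are descriptions of how the table was built, and no test was made of them.

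Across the 6 samples the members did not move as a block. Gli3 and Sufu had a Pearson r of 0.74, and the known targets Ptch1 and Gli1 had an r of -0.66 (log2(FPKM + 1), 6 samples of both groups). Gli1 and Hhip had an r of 0.55, and Ptch1 and Hhip had an r of -0.55. Shh and Ptch1 had an r of -0.89 with all transcripts summed, and 0.31 without intronic and downstream transcripts, so the first value rested on the downstream transcript of Shh. The values of a sample come from 1 library, the samples are of both conditions, and with 36 pairs over 6 samples these values are descriptions only.

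The genes whose level followed that of Gli1 most closely over the 6 samples, among 13890 candidates with a mean of at least 1 FPKM, were Dlgap5, Ruvbl2, Zeb1, Igfbp3 and RF00072, with r between 0.985 and 0.998. Dlgap5, a spindle protein of dividing cells, had 0.962, 1.05 and 1.11 FPKM in control and 0.956, 1.15 and 1.15 in model samples. With so many candidates and 6 samples, 17 genes reached an r above 0.95.

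The wider pathway was read from the same fit, in 38 further genes of which 37 were tested, and 0 of these were called and 0 had a p of at most 0.05. Their means of log2(FPKM + 1), the scale of the counts by direction below, were higher in the model for 16 and lower for 21, with a median difference of -0.00595. The ligand processing and release genes, among them the acyltransferase Hhat and the exporter Disp1, numbered 7 with 3 higher and 4 lower. Their highest gene was Scube2, a secreted protein that helps release the ligand, at 29.7 ± 2.38 FPKM in control and 32.4 ± 4.32 in model samples.

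Of the 4 coreceptor genes, 2 had higher and 2 lower means. Lrp2, an endocytic receptor of many ligands, had the highest mean, with 19.6 ± 3.72 FPKM in control and 20.3 ± 3.46 in model samples. In the 15 cilium and Gli processing genes, 5 means were higher and 10 lower, with a median of -0.05. Csnk1a1, a kinase that phosphorylates Gli proteins, was the highest at 37.1 ± 4.13 and 41.0 ± 2.58 FPKM. The smallest p of the whole pathway, 0.0645, was that of Evc, a ciliary protein that works with Smo, at 3.97 ± 1.27 FPKM in control and 2.51 ± 0.399 in model samples (limma, difference -0.48, adjusted p = 0.934). Evc is named for having the smallest p, after its value was seen.

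Of 11 genes often named as Gli targets, 6 had higher and 5 lower means of log2(FPKM + 1), with a median of 0.03 and a smallest p of 0.142. Foxf1, a transcription factor of lung mesenchyme, was the highest at 41.2 ± 4.42 FPKM in control and 41.4 ± 8.32 in model samples. Its difference on the log2(FPKM + 1) scale was slightly below 0, counted as lower, with a 95% interval of the difference from -0.38 to 0.37.

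**Figure D4:**
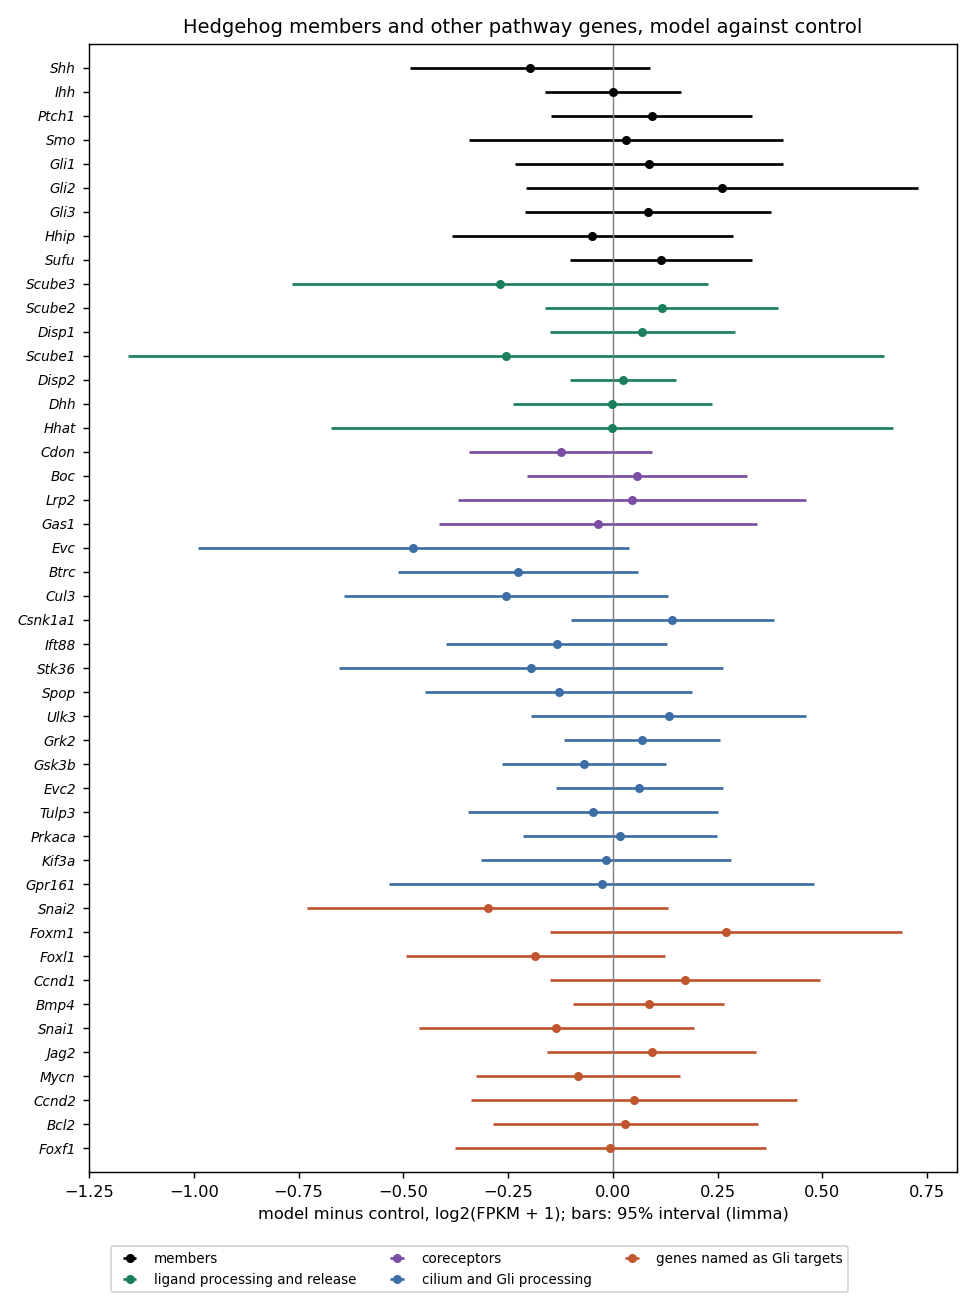
Model minus control difference in log2(FPKM + 1) (horizontal axis) with its 95% interval from limma for the 9 Hedgehog genes and the 37 tested genes of the wider pathway, coloured by role. All intervals include 0, and the widest are those of Scube1 and Hhat.

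Circular RNAs, RNAs closed by a back-splice junction, were counted in the same libraries. The 9 genes hosted 7 of 5216 circular RNAs in the table, 2 each from Gli3 and Hhip and 1 each from Ptch1, Gli2 and Sufu, and they took 9 of 14904 back-splice reads. Each was seen with 1 or 2 reads in a single library, 5 of the 9 reads being in model sample 3. No difference between groups was detectable at this depth.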

How the data were processed

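Lung RNA of 3 control and 3 PF model rats, 1 library per rat, was analysed, with groups taken from the labels. The authors trimmed reads with Cutadapt, mapped them and deposited FPKM per transcript estimated with StringTie and Ballgown, beside the coverage of each transcript, a signal not scaled for library size. The methods name Bowtie2 and Tophat2 as mappers, while the submitters' processing notes list HISAT2, StringTie and TopHat. The authors also deposited counts of back-splice reads found with Tophat-fusion and CIRCexplorer, and SRPBM, a scaled signal of the same reads that was not used. The genome build and the versions of the tools that made these tables are not given in the sources used here, and gene positions are those of the files. The library protocol keeps strand.

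FPKM were summed per gene name. Genes with an annotated transcript, and separately transcripts, were kept if 3 or more of the 6 samples had FPKM above 0 and compared with limma 3.58.1 (with trend, two-sided) on log2(FPKM + 1) in R 4.3.3, with Benjamini-Hochberg adjustment over all tested. The fit was tested on simulated data. Shares were compared with two-sided exact permutation tests. Reads were estimated as coverage times length divided by 150 bases. A class code of = marks an annotated transcript, j an assembled one sharing a junction, i one inside an intron and p one just beyond the gene. Tables were handled in Python 3.11.15 with pandas 2.3.3.

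The members and gene lists were chosen with earlier results of these data known. Named were all 9 genes with their transcripts, wider pathway genes past a threshold or highest in their list, the 5 genes with the highest r with Gli1 among those with a mean of at least 1 FPKM, and markers by list. Dhh, Hhat, Disp1, Ulk3 and Evc fall outside this rule and were named after their values were seen. Of the wider pathway, 38 names were matched. Adrbk1, another name of the listed Grk2, and Foxf2 were not matched, 1 item is not reported here, and Kif7 had no annotated transcript and was not tested. Promoter sequences are from RefSeq (GRCr8), which listed 6 of the 9 genes. Alternatives were other pseudocounts, filters, scalings, tests and sums, a block by replicate number, and fits without each sample.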

Additional observations from a re-analysis of the deposited data

How the results depend on the processing

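No Hedgehog gene was called or reached an unadjusted p of at most 0.05 under any alternative run. Some differences between model and control on the log2 scale changed sign. That of Ihh became 0.025 with a pseudocount of 0.1, 0.017 in TPM, 0.00038 with median of ratios scaling and 0.094 in a linear model F test with a library size covariate. That of Hhip became 0.032 in TPM, 0.091 in the F test and 0.21 with annotated transcripts only, and that of Gli2 became -0.084 in the F test. For Smo, a sum weighted by length gave -0.10, and annotated transcripts, the whole locus and sums without intronic and downstream transcripts gave -0.048 each. For Shh these 3 sums gave 0.20, 0.044 and 0.044. The last of these sums was chosen after seeing the data. Leaving out 1 sample moved Ihh from -0.032 to 0.059, Smo from -0.10 to 0.12 and Hhip from -0.15 to 0.059. The others kept their sign, with Shh between -0.27 and -0.13, Gli1 between 0.0040 (without control sample 1) and 0.20 (without model sample 1), Gli2 between 0.033 (without control sample 3) and 0.39 (without control sample 1), Gli3 between 0.019 (without model sample 3) and 0.15 (without model sample 2), Ptch1 between 0.033 (without model sample 1) and 0.16 (without control sample 1) and Sufu between 0.057 (without model sample 3) and 0.17 (without model sample 2).

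Among all genes, 80 were called with a mean of at least 1 FPKM, 157 in the F test and 519 with annotated transcripts only, and among all transcripts 1066 and 841 in the first and second of these. TPM scaling shifted the median difference of all genes by 0.0758 and gave 194 higher and 138 lower calls, beside 132 and 161 without it. Of the wider pathway, 2 genes, Csnk1a1 and Kif3a, had a p of at most 0.05 in the F test, 1 with annotated transcripts only (Scube1, which was then also the 1 called), and 1, Evc, in each of the sums over the locus and without intronic transcripts. Leaving out 1 sample gave 0 to 1 such genes and 0 to 1 called, the latter Foxl1 without control sample 1. For the transcripts of the 9 genes it gave 0 to 2 with a p of at most 0.05 and 0 to 1 called, the latter MSTRG.14692.10 of Ptch1 without model sample 3. Each such fit still has 2 samples in the smaller group.

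The paper describes no pairing of samples that share a number. Their deviations from the group means had correlations of 0.07, 0.03 and -0.07, beside -0.13 to 0.09 for samples with unlike numbers. With 3 rats per group these values cannot show whether a number stands for a shared batch. With the replicate block 311 genes and 1943 transcripts were called, 0 of the Hedgehog genes had a p of at most 0.05, and 1 of their transcripts did. Ihh and Gli1 are limited by their few reads.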

Other observations

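The marker lists not given above summed to 4612 to 7908 FPKM in control and 4159 to 6428 in model samples for airway epithelium, 110 to 148 and 112 to 136 for all epithelium, 100 to 133 and 96.2 to 171 for smooth muscle, 173 to 298 and 232 to 270 for endothelium, 47.6 to 63.8 and 35.8 to 57.4 for leukocytes, 6.22 to 11.3 and 7.42 to 13.5 for mesothelium, 3.41 to 4.17 and 3.44 to 3.77 for cartilage, and 502 to 579 and 581 to 708 for fibrosis genes. The part of these lists in the values of the Hedgehog genes was not tested. The sums lack names that were not matched, namely Foxj1 of airway epithelium, Pecam1 and Cldn5 of endothelium, and Cd79a and Marco of leukocytes. In the leukocyte list, Cd68 had 1.30 FPKM in control sample 3 and 1.21 in model sample 2, and 20.7 to 22.8 in the other samples. In the list for all epithelium, Nkx2-1 had 41.4 FPKM in control sample 3, which gave the highest sum, and 5.01 to 10.8 in the other samples.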
